A study of Homo sapiens with 8 samples.

Results

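MIR22 and MIR96 are microRNA genes linked to the red cell lineage, and their signal was followed here in K562 cells under erythroid induction. They were chosen by gene symbol: each name belongs to 3 consecutive spots, so the pair makes up 6 of the 621 rows and 2 of the 207 features of the array. K562 is an established human leukaemia cell line that can move towards red cell, granulocyte or monocyte fates. Unstimulated cells gave the day 0 array, and the labels do not say whether these had already been moved to serum-free medium. The later arrays, on days 2, 4, 6, 8, 10 and 22, came from cells kept in serum-free StemLineII with interleukin 3 at 50 ng/ml and erythropoietin at 7.5 U/ml. Each day had 1 array of small RNA labelled with the dye Cy3. Day 0 is the only baseline, since none of the later samples is labelled as an uninduced culture. The table holds a day 15 column as well, but it equals the mean of the day 10 and day 22 columns in 621 of 621 rows to within 0.011 units and was not used.

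MicroRNAs are short RNAs cut from a hairpin precursor. They guide a silencing complex to messenger RNAs, mainly through the seed, the stretch near the 5′ end that pairs with the target. miR-22 is made from the long noncoding transcript MIR22HG, is abundant in blood cells, and has been linked to the maturation of red cell precursors. miR-96 is made beside miR-183 and miR-182 from 1 cluster, has been described in reticulocytes, and is known as a repressor of gamma globin, the fetal beta-like chain of haemoglobin. K562 cells are known to produce embryonic and fetal globins.

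The sequences below, from RefSeq on GRCh38.p14, show which RNAs the 2 names stand for, with the seed (bases 2 to 8 from the 5′ end) in capitals. The symbol gives the gene and not the arm, so it is not known whether a probe reads the 5p or the 3p arm.
hsa-miR-22-3p: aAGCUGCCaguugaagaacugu
hsa-miR-22-5p: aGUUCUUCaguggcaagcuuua
hsa-miR-96-5p: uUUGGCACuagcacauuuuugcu
hsa-miR-96-3p: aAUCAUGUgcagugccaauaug
The miR-22 arms lie on the minus strand of chromosome 17, with miR-22-3p at chr17:1713914-1713935 and miR-22-5p at chr17:1713952-1713973, inside the span of MIR22HG in the RefSeq annotation. The miR-96 arms lie on the minus strand of chromosome 7, with miR-96-5p at chr7:129774739-129774761 and miR-96-3p at chr7:129774697-129774718, and the nearest annotated genes on either side are MIR182 and MIR183.

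The MIR96 hairpin shows how its arms sit in 1 precursor, with miR-96-5p (positions 9 to 31) and miR-96-3p (positions 52 to 73) in capitals.
MIR96 hairpin: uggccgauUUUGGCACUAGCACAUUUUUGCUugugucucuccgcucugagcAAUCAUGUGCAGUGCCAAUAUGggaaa
The close relatives of miR-96-5p are shown because they carry nearly the same 5′ end.
hsa-miR-182-5p: uUUGGCAAugguagaacucacacu
hsa-miR-183-5p: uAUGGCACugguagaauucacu
hsa-miR-1271-5p: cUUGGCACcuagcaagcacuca
Over the first 8 bases, counted from 1 at the 5′ end of miR-96-5p, miR-182-5p differs by C8A, miR-183-5p by U2A and miR-1271-5p by U1C. The seed of miR-96-5p is therefore shared exactly with miR-1271-5p alone among the 2370 mature names of the RefSeq table, and the seed of miR-22-3p with none. A messenger RNA matched to the miR-22-3p seed would read GGCAGCU, and one matched to the miR-96-5p seed GUGCCAA. Of the 67 named genes on the array, 65 had a mature sequence in that table, and none besides MIR22 and MIR96 themselves carried any of the 4 seeds of their arms. MIR182, MIR183 and MIR1271 are not among the named features and were not analysed here.

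The deposited values are Cy3 intensity with the mean of each array subtracted, so 0 is the array average and the true zero is unknown. The span of the arrays differed widely: from dimmest to brightest spot, the day 0 array covered 15443 units and the day 22 array 554. The arrays also separated by spot order. Of the 30 features with the highest mean level, 23 to 29 had the third spot above the first on the arrays of days 0 to 6, against 7 to 11 on the later arrays. Because each day had 1 array, the limma p-values below rest on the scatter of single arrays around a fitted course. The fit shares the spread over all features. The permutation p-values compare orderings of the arrays. The SD over 3 spots holds the error of spotting and scanning, not that of cultures.

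Neither member stood out from the other features in raw signal. Every one of the 21 spots of MIR22 and of the 21 spots of MIR96 lay at or below the mean of its array, as did those of 93 of the 207 features (44.9%), so this does not set the pair apart. Measured from the dimmest spot of the array, the day 0 array gave MIR22 a mean intensity of 93.3 ± 19.7 units, the day 2 array 176 ± 43.9, the day 4 array 306 ± 6.03 and the day 6 array 121 ± 11.9 (SD, n = 3 spots). The day 8 array gave 91.3 ± 4.16, the day 10 array 82.7 ± 8.39 and the day 22 array 42.0 ± 3.46 (SD, n = 3 spots). The MIR22 signal was thus highest on day 4 and lowest on day 22 in these raw units. The median feature of the same arrays stood at 110, 255, 326, 130, 46.3, 61.3 and 63.3 units on days 0, 2, 4, 6, 8, 10 and 22. MIR22 lay below this median on days 0 to 6 and on day 22, and above it on days 8 and 10.

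The day 0 array gave MIR96 a mean intensity of 156 ± 28.0 units from the dimmest spot, the day 2 array 221 ± 94.1, the day 4 array 216 ± 15.3 and the day 6 array 124 ± 6.03 (SD, n = 3 spots). The day 8 array gave 69.3 ± 6.43, the day 10 array 83.3 ± 7.57 and the day 22 array 65.7 ± 6.66 (SD, n = 3 spots). MIR96 lay above the median feature on days 0, 8, 10 and 22 and below it on days 2, 4 and 6. Its largest spread was on day 2, where the deposited values of its spots were -196.45, -200.45 and -35.45, the last being the third spot. The third spot of MIR96 was brighter than the first on 4 of 4 arrays of days 0 to 6 and on 2 of 3 arrays of days 8 to 22. For MIR22 it was brighter on 4 of 4 and 3 of 3.

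**Figure D1:**
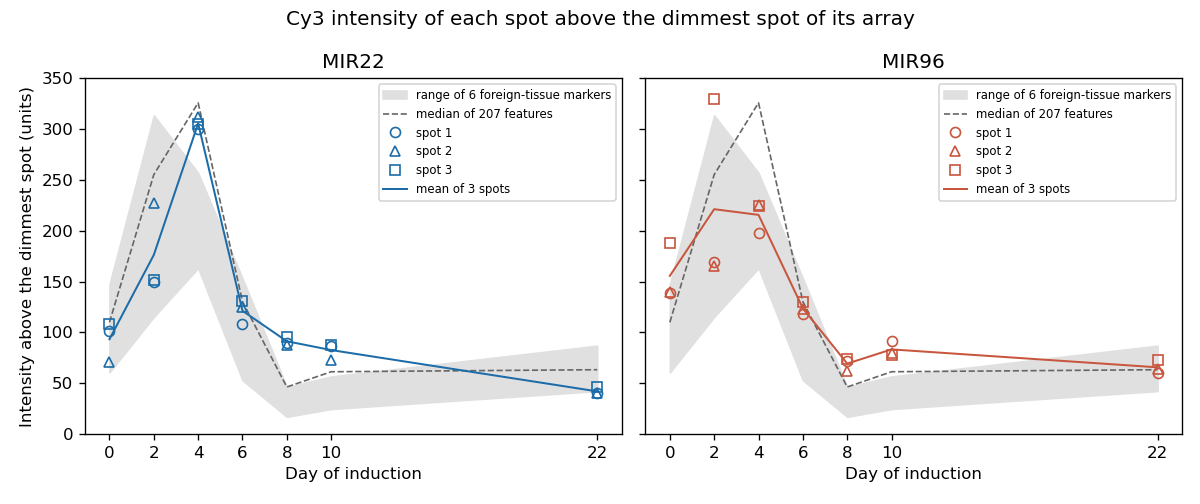
Intensity of each of the 3 spots of MIR22 (left) and MIR96 (right) above the dimmest spot of the array (vertical axis, units) by day of induction (horizontal axis). The solid line is the mean of the 3 spots, the dashed line the median of 207 features and the grey band the range of 6 foreign-tissue marker features. MIR22 exceeds the band on days 4, 8 and 10, and MIR96 on days 0, 8 and 10.

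To place these signals, 6 microRNAs of tissues foreign to blood served as a guide to the signal of RNAs not expected in these cells: MIR429 from epithelium, MIR375 from pancreatic islets, and MIR367, MIR371A, MIR372 and MIR373 from embryonic cells. Probes differ in how well they bind, so a position among features is not an abundance. After background correction, log2 transformation and quantile normalization, the mean level over 7 arrays was 7.0 ± 0.44 for MIR22 and 7.16 ± 0.34 for MIR96 (SD, n = 7 arrays). The markers had mean levels from 6.37 to 7.11, the highest being MIR373. MIR96 was 1 of the 95 features (45.9%) whose mean level exceeded that of every marker, and MIR22 was not. That contrast turned on MIR373 at 7.11 and MIR429 at 7.01, both close to the members. The other markers had mean levels from 6.37 to 6.47, below both members. MIR22 had 114 of the 207 features above it in mean level and MIR96 had 93.

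The position against the markers changed from array to array. On days 8 and 10 both members stood above all 6 markers, by 0.60 and 0.40 on the log2 scale for MIR22 and by 0.45 and 0.40 for MIR96. On the same 2 arrays 92 of 207 features (44.4%) did so, so this was common on the array. MIR22 was also above all 6 on day 4, as 123 features were (59.4%), and MIR96 was above all 6 on day 0, by 0.05, as 70 features were (33.8%). On day 22 MIR22 was at 6.39, level with the lowest marker at 6.40, and MIR96 lay above 4 of the 6. The markers themselves moved on that array, with MIR373 at 7.60 and MIR429 at 7.59 on day 22, and the part of this in the position of MIR22 was not tested.

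On the normalized log2 scale, MIR22 started at 6.81 before induction, with 6.68 at day 2, 7.05 at day 4 and 7.01 at day 6. It then reached 7.68 at day 8, with 7.39 at day 10 and 6.39 at day 22. After quantile normalization MIR22 was thus highest on day 8 and lowest on day 22, a span of 1.30. Median centring and 75th percentile scaling kept day 8 as the highest but put the lowest level on day 2, at 6.37 and 6.25 against 6.79 and 6.96 on day 22. Within its array it stood at percentile 38.6 of the 207 features on day 0, 74.9 on day 8 and 13.5 on day 22. In the order of its levels (days 8, 10, 4, 6, 0, 2, 22), the spots of day 8 did not overlap those of day 10, nor day 10 those of day 4, nor day 2 those of day 22. The spots of days 4 and 6, of days 6 and 0, and of days 0 and 2 overlapped. Spots of 1 array do not hold the error of cultures, so a lack of overlap does not order the days either. The order also belonged to quantile normalization. After 75th percentile scaling MIR22 was lower on day 4 (6.84) than on day 0 (6.91).

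MIR96 started at 7.49 before induction, with 6.87 at day 2, 6.64 at day 4 and 7.03 at day 6. The later arrays gave 7.53 at day 8, 7.39 at day 10 and 7.14 at day 22. After quantile normalization MIR96 was highest on day 8 and lowest on day 4, a span of 0.90. Under median centring and 75th percentile scaling day 0 was the highest instead, at 7.47 and 7.54 against 7.41 and 7.42 on day 8, and day 4 stayed the lowest. Within its array its percentile was 68.1 before induction, 31.9 at day 4, 71.5 at day 8 and 53.6 at day 22. In the order of its levels (days 8, 0, 10, 22, 6, 2, 4), the spots of each day overlapped those of the next at all 6 steps. The spots of day 4 (6.55 to 6.69) overlapped those of day 2 but lay below those of every other day. Day 8 as the highest day was shared with 12.6% of the 207 features. The SD over 7 arrays stood at percentile 66.7 of all features for MIR22 and 51.2 for MIR96.

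**Figure D2:**
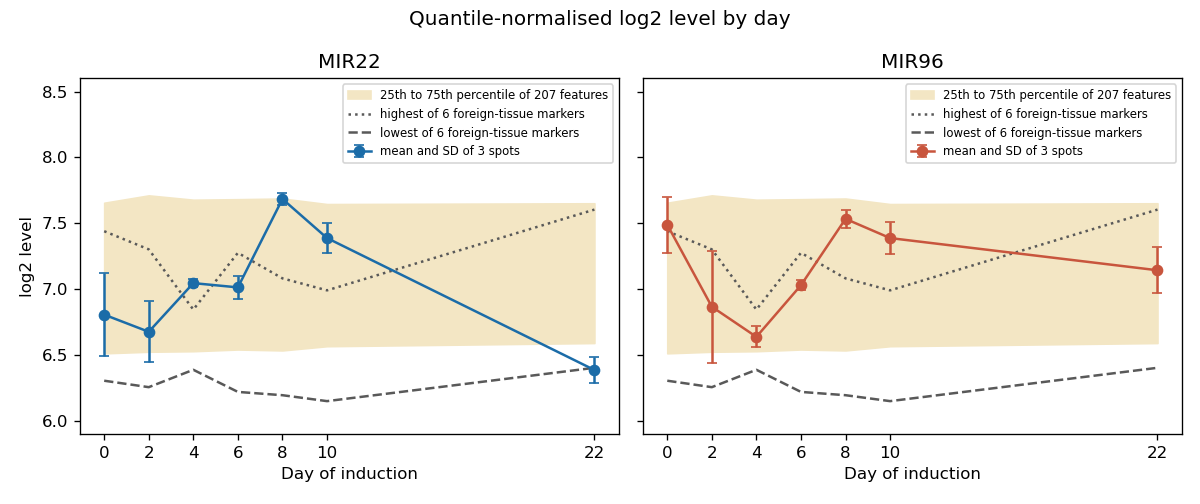
Quantile-normalised log2 level (vertical axis) of MIR22 (left) and MIR96 (right) by day of induction (horizontal axis), as mean and SD of 3 spots on 1 array a day. The shaded band runs from the 25th to the 75th percentile of 207 features, and the dotted and dashed lines are the highest and lowest of 6 foreign-tissue markers. MIR22 reaches 7.68 on day 8 and falls to 6.39 on day 22, and MIR96 dips to 6.64 on day 4.

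The study used day 0 as the baseline, so each later array was set against it, with no test because each side is 1 array. The log2 difference of MIR22 was -0.13 at day 2, 0.24 at day 4, 0.21 at day 6, 0.88 at day 8, 0.58 at day 10 and -0.42 at day 22. The day 8 difference was the largest of these. On that day 4.35% of all features had a higher one, and 7.73% moved at least as far in either direction. For MIR96 it was -0.62 at day 2, -0.85 at day 4, -0.46 at day 6, 0.04 at day 8, -0.10 at day 10 and -0.35 at day 22. MIR96 lay below day 0 on 5 of 6 later arrays, and the day 4 difference was the largest. On day 4, 12.1% of all features moved at least as far in either direction. A difference of at least 1 on the log2 scale, a factor of 2, was reached by 0 of the 2 members on any day after quantile normalization, against 60 of 207 features (29.0%) on at least 1 day. With median centring MIR96 reached it, as did 31.9% of features, and with 75th percentile scaling it did so again, as did 41.5%. Without normalization both members reached it, as did 72.0% of features.

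How the arrays are scaled to each other decided part of this. The day 8 difference of MIR22 was 0.88 after quantile normalization, 0.82 after median centring, 0.76 after 75th percentile scaling and 0.24 without normalization, positive in all 4. The day 4 difference of MIR22 was 0.24, 0.20, -0.08 and 1.22 in that order, below 0 with 75th percentile scaling. The day 22 difference of MIR22 was -0.42, -0.06, 0.04 and -0.88 in the same order, so its sign turned after 75th percentile scaling. The day 4 difference of MIR96 was -0.85, -1.02 and -1.29 under the 3 scalings but 0.003 without normalization, where the median of all features on day 4 was itself 0.86 above day 0. The day 22 difference of MIR96 was -1.165 without normalization, where the median of all features was -0.62. Without normalization both members were highest on day 4 and lowest on day 22. The median difference of all features from day 0 had the same highest and lowest days.

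**Figure D3:**
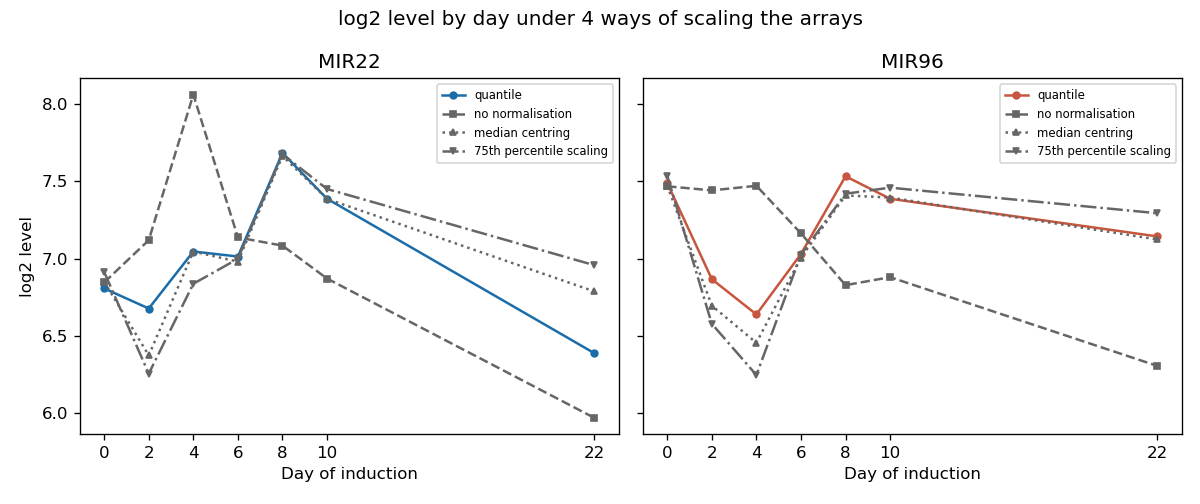
log2 level (vertical axis) of MIR22 (left) and MIR96 (right) by day of induction (horizontal axis) under 4 scalings of the 7 arrays, with quantile normalization in colour and the others in grey. The 3 scalings keep MIR22 highest on day 8, while without normalization both members are highest on day 4. Without normalization the median difference of all features from day 0 is also highest on day 4.

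Whether either microRNA rose or fell over the course was tested with a limma trend on the sampling order, fitted to all 207 features, with Benjamini-Hochberg adjustment over all of them. Over the whole course the fitted log2 change was 0.04 ± 0.49 for MIR22 (SE, n = 7 arrays, 95% interval -1.09 to 1.16, adjusted p = 0.969 in limma). For MIR96 it was 0.18 ± 0.41 (SE, n = 7 arrays, 95% interval -0.75 to 1.105, adjusted p = 0.909 in limma). Neither member passed, and the intervals leave room for a change of about a factor of 2 in either direction for MIR22 and upwards for MIR96. Among all features 0 rose (0%) and 1 fell (0.483%) in this test, and at an unadjusted p under 0.05 there were 10 positive and 12 negative. An exact two-sided permutation over all orderings of the 7 arrays gave p = 0.948 for MIR22 and p = 0.690 for MIR96.

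The near-zero slope of MIR22 rested on the day 22 array. Without day 22 its fitted change was 1.26 ± 0.49 (SE, n = 6 arrays, adjusted p = 0.341 in limma), the slope being carried over the same 7 steps. On either side of the split in spot order, the MIR22 slope over the same number of steps was 0.69 ± 1.12 within days 0 to 6 (SE, adjusted p = 0.967 in limma, 4 arrays). Within days 8 to 22 it was -3.10 ± 0.49 (SE, adjusted p = 0.0799 in limma, 3 arrays). In that limma fit 63 of 207 features had an unadjusted p under 0.05 and 0 passed after adjustment. With a term for days 8 to 22 in the fit, the change of MIR22 was -1.14 ± 0.86 (SE, adjusted p = 0.710 in limma). For MIR96 the values were -1.12 ± 1.12 within days 0 to 6, -0.90 ± 0.44 within days 8 to 22 and -1.02 ± 0.64 with the term (SE, adjusted p = 0.920, 0.308 and 0.613 in limma). Both members thus had a negative slope once the step between the 2 sets of arrays was fitted. Within days 0 to 6, however, the slope of MIR22 was above 0 and that of MIR96 below 0. None of these slopes passed. The slopes within a set were carried over 7 steps, more than the set spans. Between days 8 and 22 the MIR22 level itself went from 7.68 to 6.39.

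A rise followed by a fall would not show in a slope, so a second-order term was fitted as well, with values below 0 for a peak in mid course. MIR22 had a coefficient of -0.83 ± 0.31 (SE, n = 7 arrays, 95% interval -1.55 to -0.12), leaning towards a peak, with an unadjusted p of 0.0271 and an adjusted p of 0.216 in limma. That made it 26 in order of p among 207 features, and it did not pass. MIR96 had a coefficient of 0.13 ± 0.35 (SE, n = 7 arrays, 95% interval -0.66 to 0.92, adjusted p = 0.847 in limma). A peak passed in 3 features (1.45%) and a trough in 3 (1.45%), and neither member was among them. Without day 0 the MIR22 coefficient was -0.96 ± 0.25 (SE, adjusted p = 0.0158 in limma) and passed, on arrays where 48 of 207 features passed. Without day 22 it was 0.04 ± 0.30 (SE, adjusted p = 0.992 in limma), so the peak of MIR22 in this fit depended on the last array. It was -0.58 ± 0.39 with median centring and -0.43 ± 0.42 with 75th percentile scaling (SE, adjusted p = 0.632 and 0.622 in limma).

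**Figure D4:**
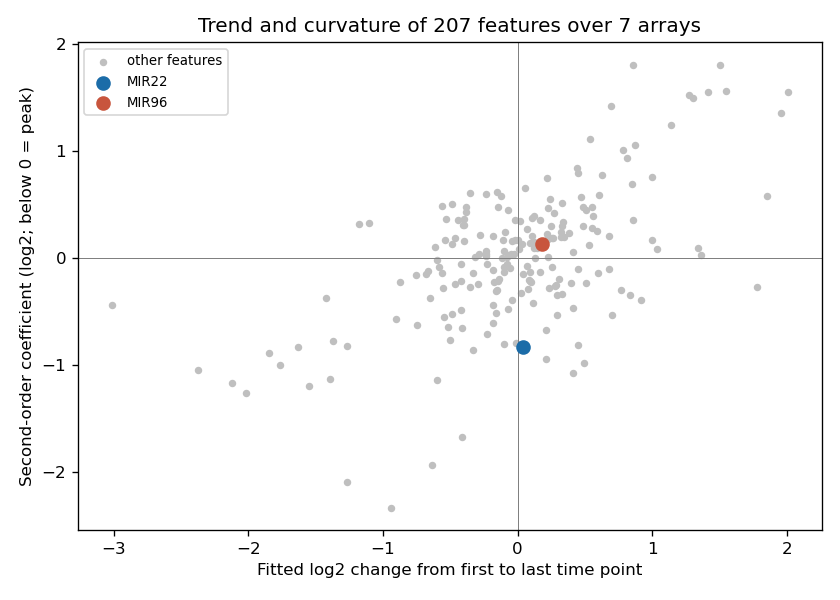
Fitted log2 change over the whole course (horizontal axis) and second-order coefficient on the log2 scale (vertical axis, below 0 for a peak) of 207 features over 7 arrays, with MIR22 and MIR96 in colour. MIR22 sits at 0.04 and -0.83, and MIR96 at 0.18 and 0.13, inside the cloud of the other features.

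The 2 members were then set against each other within each array. The log2 level of MIR22 minus that of MIR96 was -0.68 before induction, -0.19 at day 2, 0.41 at day 4 and -0.02 at day 6. It was 0.15 at day 8 and -0.76 at day 22, and at day 10 the levels were both 7.39. Quantile normalization stretches or compresses parts of an array, whereas median centring and 75th percentile scaling leave such a difference as it is without normalization. Without normalization it was -0.62 before induction, 0.59 at day 4 and -0.34 at day 22. On both scales the difference was below 0 on days 0, 2, 6 and 22 and highest on day 4. The spots of the 2 members overlapped on days 2, 6 and 10. Each day rests on 1 array, and such a difference does not show which of the 2 is more abundant. After quantile normalization the slope of the difference over the course was -0.14. An exact two-sided permutation over all orderings of the 7 arrays gave p = 0.802. Without normalization, and equally under the 2 scalings by a constant, the slope was 0.18 (exact permutation p = 0.749), so its sign was not settled. Without day 22 it was 0.85 (exact permutation p = 0.222, 6 arrays).

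The features whose course was most like that of each member were ranked by Pearson correlation of log2 levels over the 7 arrays, among the 66 other named features. These are the highest of many values, the arrays share their scaling, and r is given as a description. For MIR22 they were MIR10A (r = 0.927), MIR15B (0.897), MIR23A (0.865), MIR21 (0.833) and MIR23B (0.758). Without days 8 and 22, the arrays farthest from the MIR22 median, these became 0.837, 0.808, 0.610, 0.764 and 0.410. With 75th percentile scaling r was 0.814, 0.560, 0.918, 0.486 and 0.839, so the order of likeness depended on the scaling. MIR33A was least like MIR22 (r = -0.877), but r was 0.405 without normalization. Of the 5 nearest, MIR15B at 9.45 and MIR21 at 10.71 had mean levels above every foreign-tissue marker, while MIR10A, MIR23A and MIR23B at 6.39, 7.10 and 6.99 did not.

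For MIR96 the nearest were MIR340 (r = 0.913), MIR361 (0.820), MIR339 and MIR423 (0.775 each) and MIR23A (0.713). Without days 4 and 8, the arrays farthest from the MIR96 median, they became 0.957, 0.583, 0.597, 0.652 and 0.765. With 75th percentile scaling r was 0.943, 0.937, 0.968, 0.892 and 0.798. The mean levels of these 5 ran from 6.25 for MIR340 to 7.10 for MIR23A, so 0 of them exceeded the highest marker, at 7.11. MIRLET7D was least like MIR96 (r = -0.778), but r was 0.760 without normalization. MIR23A was near both members, whose correlation with each other was 0.410 after quantile normalization, 0.497 after median centring, 0.638 after 75th percentile scaling and 0.753 without normalization.

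MIR22 and MIR96 belong to a list of 24 microRNA genes known from red cell development, of which 4 were measured under a name, the others being MIR15A and MIR15B. Of these 4, 0 rose and 0 fell in the limma trend, and their median fitted change was -0.30, against 0.03 over all 207 features. MIR15A and MIR15B, close paralogs that repress regulators of cell division and survival, had fitted changes of -1.27 ± 0.48 and -0.64 ± 0.92 (SE). In the second-order fit 1 of the 4, MIR15B, passed with a peak (coefficient -1.94, adjusted p = 0.0450 in limma), where 1.45% of all features did. The call was lost after 75th percentile scaling (adjusted p = 0.191 in limma), with array weights (0.0518) and on a log2 scale of time (0.295). It was also lost without day 4 (adjusted p = 0.143 in limma), day 6 (0.125), day 8 (0.113) or day 22 (0.765), and without day 22 the coefficient was -0.42. Coefficients below 0 were found for 3 of the 4, MIR22 being 1 of them, and for 45.9% of all features. The best known red cell microRNAs, MIR451A and MIR144, are not among the named features and were not analysed here.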

How the data were processed

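Ambion kits served to isolate and label the small RNA, which was read on Cy3 arrays of 1 colour, per the labels. The extraction label names CD34 cells while the others name K562, and the samples were taken as K562. The authors deposited Cy3 intensity on a linear scale, centred on the mean of each array, as the column means show. How the arrays were scanned and background corrected is not given in the sources used here, so zero and scale between arrays are unknown. Depth does not apply: the number of arrays limits precision.

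Values of 7 arrays were corrected with normexp (offset 50) in limma 3.58.1 (R 4.3.3), put on the log2 scale, quantile normalized and averaged over 3 spots. The offset and normexp understate log2 differences of dim features, such as both members. Trend (position in the sampling order, change over 7 steps) and second-order term were fitted with lmFit and eBayes on 207 features, with Benjamini-Hochberg adjustment and a threshold of 0.05. Both fits were tested on simulated data with independent noise in each array. Those data held neither the unequal spans nor the spot-order split, so they do not show the power of the fits here. Array symbols, from a platform annotation, were matched by gene identifier to RefSeq for 67 of 67 genes. Its coordinates belong to GRCh38.p14, and no build is named for the arrays. Features with a symbol are called named; those given by name in the text are both members, the 5 most and the 1 least correlated named features of each, the erythroid list and the foreign-tissue markers, of which 6 of 26 were measured. The members and lists were chosen with earlier results of these data known. The split at day 8 had also been seen. The labels do not say whether days came from separate cultures. Plots were made in Python 3.11.15 using matplotlib 3.10.9.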

Additional observations from a re-analysis of the deposited data

How the results depend on the processing

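No paired analysis was possible because each time point has 1 array and the labels give no replicate numbers. The trend of MIR22 did not pass in any of 23 alternatives and its sign turned in 8. It was -0.31 on a scale of days, -1.04 without normalization and -1.14 with the term for the later arrays. Without normalization the median trend over all 207 features was itself -1.24, below that of both members. Within days 8 to 22 the trend of MIR22 was -3.10 when carried over 7 steps, more than these arrays span. It ran from -0.16 to 1.26 when 1 array was left out. The trend of MIR96 did not pass in any of 24, with negative values of -0.023 on a log2 scale of days, -1.21 without normalization, -0.070 with spot 3 alone, -1.02 with the term, -1.12 within days 0 to 6 and -0.90 within days 8 to 22, and 0.03 to 0.65 when 1 array was left out. The curvature of MIR22 kept its sign in 19 of 20 alternatives and passed in 1, without day 0 (adjusted p = 0.0158 in limma, against 0.0859 to 0.992 in the others), with -0.96 to 0.039 when 1 array was left out. It was -0.43 after 75th percentile scaling and -0.58 after median centring. The term for days 8 to 22 in the second-order fit, the alternatives for MIR15B and the counts of features past a factor of 2 under other scalings were chosen after seeing the data. The curvature of MIR96 was -0.11 with array weights, -0.086 on a scale of days, -0.20 without normalization and -0.052 with spot 1 alone, and -0.37 to 0.62 when 1 array was left out. The slope of MIR22 minus MIR96 was 0.18 with no normalization, with median centring and with 75th percentile scaling, 0.14 with spot 3 alone and 0.15 on a log2 scale of days, and -0.81 to 0.85 when 1 array was left out. The cause of these turns was not tested. With values at or below 0 set to the lowest positive value, both members were at the floor on all 7 arrays and gave no value, and after the filter at the median level MIR22 was not tested.

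Over all features, the limma trend called 1 feature, and 2 after median centring or 75th percentile scaling, 3 with day 15 kept, 10 on a scale of days and 9 without normalization. It called 0 with log2 of days as time, with the floor, with the term, and within either set of arrays, days 0 to 6 or days 8 to 22 (16, 5, 16, 7 and 63 at an unadjusted p under 0.05), and 0 to 4 when 1 array was left out, with 0 without days 2, 4, 10 or 22. The second-order term called 6, and 2 after median centring, 3 without normalization or on a log2 scale of days, 10 after the filter, 15 with spot 1 and 11 with spot 3 alone. It called 0 after 75th percentile scaling, with array weights and with the floor (15, 24 and 39 at an unadjusted p under 0.05), and 0 to 48 when 1 array was left out, with 0 without days 4, 6, 8 or 22.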
